A study of Mus musculus with 18 samples.

Results

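The genes of prostaglandin synthesis and reception examined here were 10: the cyclooxygenases *Ptgs1* and *Ptgs2*, the terminal synthases *Ptges*, *Ptgis* and *Ptgds*, the prostaglandin E2 receptors *Ptger1*, *Ptger2*, *Ptger3* and *Ptger4*, and the prostaglandin F receptor *Ptgfr*. They were chosen by symbol, and each of the 10 was found on a single transcript cluster of the array, which has 28856 clusters, 25254 of them with a gene symbol. A transcript cluster is the set of probes that the array reads as a single gene. The arrays, 18 Affymetrix Mouse Gene ST arrays, measured RNA of mesangial cells, podocytes and endothelial cells purified by FACS from glomeruli of mice at 5 weeks of age, with 3 arrays for each cell type and genotype. The mutant mice were homozygous for a targeted null allele of *Cd2ap*, an adapter protein of the podocyte slit diaphragm, on a strain that the methods name B6.129X1-Cd2ap tm1Shaw/J, and the genotype field of every control sample reads wild type. Mesangial cells were taken by the *Meis1-GFP* reporter, endothelial cells by *Tie2-GFP* and podocytes by a GFP reporter of their own, so all 6 groups carried a GFP transgene, and reporter, sort and cell type cannot be told apart. The mesangial controls differ from the others in their labels: their 3 sample titles say control where those of the other cell types say wild type, and their column names carry a plus and a minus mark where the others carry plus marks alone. Whether they were heterozygous cannot be settled from the labels, and they are called wild type below after the genotype field alone. If they were, comparisons of mesangial cells or their genotype effects with those of other cell types would also differ in control genotype. The mutation is present in every cell of the animal and not in podocytes alone. The column name of each array carries a number of its own, but the labels do not say what it counts, and p values measure the spread between these arrays.

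Prostaglandins are lipids made from arachidonic acid, which cytosolic phospholipase A2 cuts from membranes. Cyclooxygenase 1, encoded by *Ptgs1*, is present in many cells without stimulation, and cyclooxygenase 2, encoded by *Ptgs2*, is typically induced by injury, cytokines and growth factors. Both make prostaglandin H2, which a terminal synthase turns into prostaglandin E2 (*Ptges*), prostacyclin (*Ptgis*) or prostaglandin D2 (*Ptgds*), and these act through receptors of the cell surface coupled to G proteins. In the glomerulus, prostaglandins made locally are known to act on the contraction of mesangial cells, on filtration and on renin release.

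The promoters of the members whose levels differed most clearly are shown, as the 250 bases before the start of transcription in RefSeq (GRCm38.p6). Capitals mark matches to 8 motifs searched on both strands: TATAAA, the cyclic AMP response element TGACGTCA, its variant TGACGCAA, the E-box CACGTG, the GC box GGGCGG, a C/EBP type motif TTNNGNAAT, the AP-1 motif TGANTCA, and an NF-kB type motif of GGG and CC that lie 5 bases apart. Overlapping matches run together in the capitals.

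Ptgs2, chr1:150099781-150100030, plus strand: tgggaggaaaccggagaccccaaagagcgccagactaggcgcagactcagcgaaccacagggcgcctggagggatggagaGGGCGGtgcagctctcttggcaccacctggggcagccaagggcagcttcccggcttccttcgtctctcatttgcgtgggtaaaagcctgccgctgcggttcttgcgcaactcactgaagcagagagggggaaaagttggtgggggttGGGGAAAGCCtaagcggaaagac
Ptger4, chr15:5244188-5244437, minus strand: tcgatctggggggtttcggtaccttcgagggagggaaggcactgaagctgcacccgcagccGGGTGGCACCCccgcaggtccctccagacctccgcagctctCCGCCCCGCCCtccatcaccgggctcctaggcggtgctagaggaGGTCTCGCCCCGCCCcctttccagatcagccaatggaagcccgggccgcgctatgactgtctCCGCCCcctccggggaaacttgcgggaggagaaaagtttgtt
Ptgs1, chr2:36230176-36230425, plus strand: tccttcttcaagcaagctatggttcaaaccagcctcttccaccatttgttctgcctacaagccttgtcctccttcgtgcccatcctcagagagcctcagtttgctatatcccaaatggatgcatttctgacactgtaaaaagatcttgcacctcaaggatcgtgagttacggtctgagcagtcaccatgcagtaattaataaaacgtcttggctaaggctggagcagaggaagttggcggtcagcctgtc

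The *Ptgs2* promoter, with 61.6% G and C, held a GC box 170 to 165 bases before the start and an NF-kB type match 23 to 14 bases before it. The *Ptger4* promoter, with 66.8% G and C, held 4 GC boxes and 3 NF-kB type matches, 2 of which overlap. The *Ptgs1* promoter, with 48% G and C, held none of the 8 motifs in this window. These matches are common: of 32817 promoters of the same length, 32.7% held the GC box and 45.8% the NF-kB type motif. TATAAA was found in 12.4%, TGACGTCA in 1.55%, TGACGCAA in 0.439%, CACGTG in 6.02%, TTNNGNAAT in 10.2% and TGANTCA in 6.75% of them. Of the other members, *Ptges*, *Ptgds*, *Ptger2*, *Ptger3* and *Ptgfr* were matched in the table, and *Ptgis* and *Ptger1* were not. The 8 promoters found differ in G and C content, from 38% for *Ptger2* to 66.8% for *Ptger4*.

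The array medians lay between 62.8 and 71.6 on the linear signal scale, and 9697 to 10097 transcript clusters per array reached a signal of 100, the minimum taken from the study's methods. Of the 10 genes, 7 reached 100 on at least 1 array, and 3 (*Ptges*, *Ptger2* and *Ptger3*) stayed below it on all 18. The sorts matched their labels by marker genes: 10 podocyte markers summed to 14396 to 18373 on podocyte arrays and to at most 4651 elsewhere, 10 endothelial markers to 15644 to 18169 on endothelial arrays and to at most 8298 elsewhere, and 10 mesangial markers to 9957 to 13743 on mesangial arrays and to at most 5064 elsewhere. Arrays within a group are called A, B and C in column order. Mesangial wild type array C stood apart, with podocyte markers at 4651 against 1080 and 1245 on arrays A and B and erythroid markers at 7253 against 584 and 296. Mesangial mutant array B had leukocyte markers at 2109 against 671 and 613, and podocyte mutant array A had erythroid markers at 5405 against 720 and 232. *Cd2ap* had a mean signal of 1027 ± 101 (SD, n = 3) in wild type and 829 ± 37.6 in mutant mesangial cells, 1775 ± 295 and 1498 ± 17.6 in podocytes, and 819 ± 53.9 and 926 ± 37.5 in endothelial cells. None of the 3 genotype comparisons called it (adjusted p of 0.151, 0.504 and 0.336), and in endothelial cells the mutant mean was the higher one, so the directions given here depend on the genotype labels being right.

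**Figure D1:**
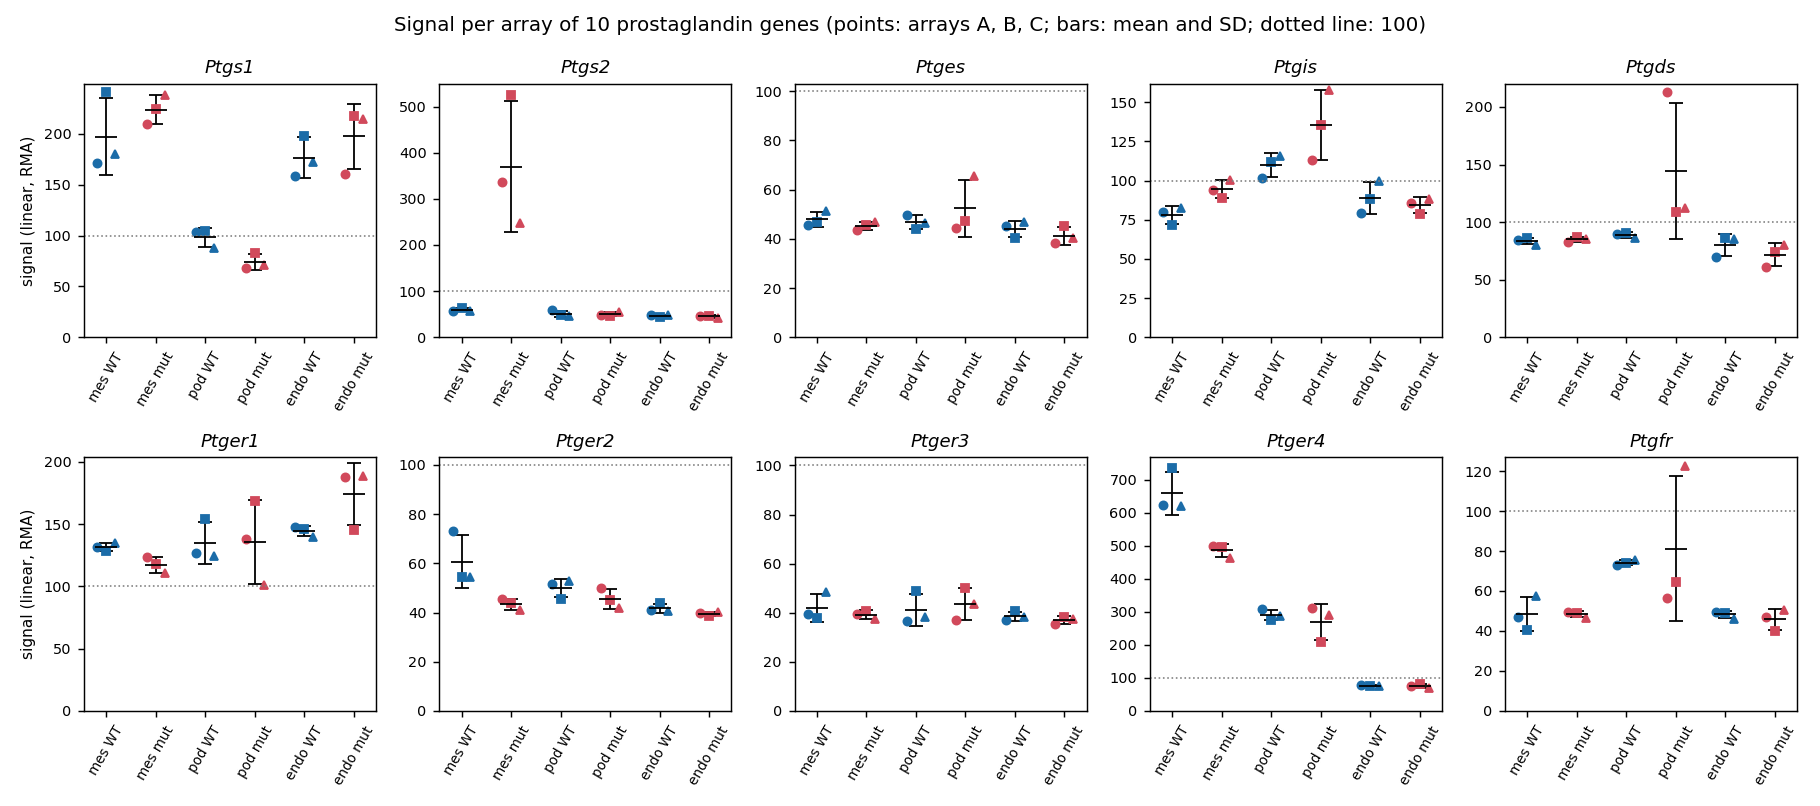
Signal (linear scale, y axis) of the 10 genes on each array by cell type and genotype (x axis), where points are arrays A (circle), B (square) and C (triangle), bars are the mean and SD of 3 arrays and the dotted line is the minimum of 100. *Ptgs2* lies at 246.8 to 525.8 on the 3 mutant mesangial arrays and at 42.3 to 62.7 on the other 15, and *Ptger4* falls from mesangial cells to podocytes to endothelial cells.

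Among the cyclooxygenases, *Ptgs2* was found above the minimum in a single group, mutant mesangial cells. Its signal was 57.0, 62.7 and 57.4 on the wild type mesangial arrays, all under the array medians, and 337.2, 525.8 and 246.8 on the mutant ones. The groups did not overlap, and the lowest mutant array was above every other array of the series. In limma's fit of the 6 mesangial arrays the difference was 2.58 ± 0.26 (log2, SE), a 5.98-fold higher signal, with an adjusted p = 0.00843 over 11457 transcript clusters. As the wild type signal lay below 100, *Ptgs2* entered this test only through the mutant arrays, and the fold is measured against a level near the floor of the array.

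Podocytes and endothelial cells gave *Ptgs2* signals of 58.0, 47.2 and 46.1 in wild type and 47.3, 46.9 and 55.7 in mutant podocytes. In endothelial cells they were 47.5, 43.7 and 47.6 in wild type and 46.7, 46.5 and 42.3 in mutant arrays. Both cell types thus stayed below 100 in either genotype, and *Ptgs2* entered neither genotype test. With no minimum the differences were -0.01 in podocytes (adjusted p = 0.983) and -0.04 in endothelial cells (adjusted p = 0.822). In the fit of all 18 arrays, which *Ptgs2* likewise entered only through the mutant mesangial arrays, the genotype difference was lower in podocytes than in mesangial cells by a log2 value of -2.59 (95% interval -3.16 to -2.02, adjusted p = 0.000134) and lower in endothelial than in mesangial cells by -2.62 (interval -3.18 to -2.05, adjusted p = 9.69e-05). The same contrast between endothelial cells and podocytes was -0.03 (interval -0.59 to 0.54, adjusted p = 0.959).

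The mutant mesangial array with the highest *Ptgs2*, array B, was also the one with the highest leukocyte marker sum, where *Tyrobp*, an adapter of myeloid cells, was at 1261 against 168.1 and 158.6 on arrays A and C. Mutant arrays A and C had leukocyte sums of 671 and 613, above the 599 and 515 of wild type arrays A and B and below the 1446 of wild type array C. Without mutant array B and wild type array C the difference was 2.27 (adjusted p = 0.0153), and over the 6 fits that leave out 1 mesangial array it ran from 2.29 to 2.84. The macula densa is a renal site known for *Ptgs2*, and its marker *Nos1* was at 55.7 to 59.6 in wild type and 58.7 to 63.0 in mutant mesangial arrays, and *Slc12a1*, the cotransporter of that segment, was at 32.8 to 35.0 in mutant ones. The 9 macula densa and tubule markers summed to 519, 512 and 1916 on wild type arrays A, B and C and to 530 to 539 on mutant ones. Renin (*Ren1*) was at 230.7 to 359.9 in wild type and 194.4 to 357.2 in mutant mesangial arrays, so these ranges overlapped. Its cluster also holds *Ren2*, so these genes cannot be told apart. The 7 juxtaglomerular and smooth muscle markers, *Ren1* among them, summed to 1967 to 2355 in wild type and 2129, 3120 and 3388 in mutant arrays A, B and C. The 5 markers of parietal epithelium summed to at most 382 in wild type and 499 to 587 in mutant mesangial arrays, a difference carried mostly by *Cldn1* at 92.7 to 117.4 and 188.0 to 313.9. The 10 mesangial markers summed to 12173 to 13743 and 9957 to 11024. Neither of the last 2 sums overlapped between genotypes, and the part of the leukocyte, juxtaglomerular, parietal and mesangial lists in the *Ptgs2* difference was not tested. A higher *Ptgs2* signal from more of the sorted cells and one from more RNA per cell cannot be told apart in bulk samples.

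*Ptgs1* was present in mesangial and endothelial cells and lower in podocytes. Wild type arrays gave 171.1, 240.7 and 179.9 in mesangial cells, 158.5, 198.2 and 172.8 in endothelial cells, and 103.0, 104.7 and 87.6 in podocytes. Every podocyte array lay below every array of the other cell types. The difference between wild type mesangial cells and podocytes was 0.99 ± 0.15 (log2, SE, adjusted p = 0.000871, limma over 9 wild type arrays), and that between podocytes and endothelial cells was -0.84 ± 0.15 (adjusted p = 0.00156). Mesangial and endothelial cells differed by 0.15, with an interval of -0.18 to 0.48 (adjusted p = 0.474).

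With the mutation, *Ptgs1* was at 209.8, 224.0 and 237.9 in mesangial cells, within the wild type range, and the difference was 0.20 (interval -0.14 to 0.54, adjusted p = 0.472). In podocytes it was at 68.5, 83.2 and 71.1 on mutant arrays, all below the lowest wild type array at 87.6, with a difference of -0.41 (interval -0.73 to -0.08, unadjusted p = 0.0203, adjusted p = 0.264) that did not pass the test. The marker sums of the cell types with more *Ptgs1* were also lower on the mutant podocyte arrays, at 1321 to 3823 against 4039 to 5064 for mesangial and 976 to 2956 against 4608 to 6060 for endothelial markers. Their part in this value was not tested. In endothelial cells it was at 160.2, 217.7 and 214.5, and the difference was 0.15 (interval -0.18 to 0.49, adjusted p = 0.591). The test of *Ptgs1* between the podocyte and mesangial genotype differences gave -0.60 (adjusted p = 0.229).

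Of the terminal synthases, *Ptgis*, which makes prostacyclin, was higher in podocytes. Its wild type signals were 101.7, 112.2 and 116.0 in podocytes, 80.2, 71.5 and 82.6 in mesangial cells, and 79.0, 88.0 and 99.7 in endothelial cells. The podocyte arrays lay above all others of the wild type, although the margin over the highest endothelial array was narrow. In wild type arrays *Ptgis* reached 100 in podocytes alone, so it was tested only through the group in which it was high. Mesangial cells were lower than podocytes by a log2 difference of -0.49 ± 0.11 (SE, adjusted p = 0.00864), and podocytes were higher than endothelial cells by 0.31 ± 0.11 (adjusted p = 0.0481). The second call is fragile: it held in 5 of 13 alternative fits, and was lost without podocyte wild type array B (adjusted p = 0.115) or C (0.138), or endothelial wild type array A (0.146) or B (0.108). Mesangial and endothelial cells differed by -0.18 (adjusted p = 0.240).

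In mutant mesangial cells *Ptgis* was at 94.3, 88.8 and 100.2, above all 3 wild type arrays, and the difference of 0.27 ± 0.09 (unadjusted p = 0.0234) had an adjusted p = 0.164. It entered this test through mutant array C alone, the only mesangial array above 100. In mutant podocytes it was at 113.0, 135.4 and 157.6, a range that overlapped wild type, with a difference of 0.29 (adjusted p = 0.436). In mutant endothelial cells it stayed at 78.6 to 88.2. *Ptgds*, the lipocalin-type prostaglandin D synthase, was at 89.8, 90.5 and 86.1 in wild type podocytes and 212.7, 108.9 and 112.2 in mutant ones. All 3 mutant arrays lay above wild type, and array A was far above the other two. With wild type below 100, *Ptgds* too entered the test only through the mutant arrays. The fit gave 0.63 ± 0.25 (log2, SE, unadjusted p = 0.0390, adjusted p = 0.328), and over the fits that leave out 1 array it ran from 0.32 to 0.80, the lowest without mutant array A. Erythroid markers summed to 5405 on that array and to 2987 to 3989 on wild type podocyte arrays. The juxtaglomerular and smooth muscle markers summed to 3643, 2933 and 1584 on mutant arrays A, B and C and to 1332 to 1365 on wild type ones. The parietal epithelium markers summed to 687 to 888 on mutant and 475 to 488 on wild type podocyte arrays. The part of these lists in this value was not tested. In the other 4 groups *Ptgds* was at 60.9 to 87.1. *Ptges*, the inducible prostaglandin E synthase, was at 38.3 to 65.7 on the 18 arrays, with group means from 41.3 to 52.4 whose neighbours in that order all overlapped.

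Among the receptors, *Ptger4*, the EP4 receptor, which raises cyclic AMP, followed the cell type most closely. Wild type arrays gave 623.5, 734.4 and 620.0 in mesangial cells, 307.3, 276.4 and 288.1 in podocytes, and 79.7, 74.6 and 75.8 in endothelial cells. The 3 cell types did not overlap, and endothelial cells stayed below 100. Mesangial cells were above podocytes by 1.18 ± 0.09 (log2, SE, adjusted p = 2.56e-05) and above endothelial cells by 3.10 ± 0.09 (adjusted p = 3.13e-08), and podocytes were above endothelial cells by 1.92 ± 0.09 (adjusted p = 7.83e-07). These are 2.26-fold, 8.57-fold and 3.79-fold differences, the last 2 of them taken against endothelial signals below the minimum, where the fold is less certain. All 3 calls held in each of 13 alternative fits.

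Mutant mesangial cells had *Ptger4* at 497.9, 497.7 and 464.4, below every wild type mesangial array and above every podocyte array. The sum of the 10 mesangial markers was also lower on these mutant arrays without overlap, at 9957 to 11024 against 12173 to 13743, and its part in this value was not tested. The difference from wild type was -0.43 ± 0.10 (log2, SE, interval -0.67 to -0.20, unadjusted p = 0.00318, adjusted p = 0.0700) and did not pass the test as set. It did so where a signal of 100 was required on all 3 arrays of a group (adjusted p = 0.0447) and with an intensity trend and robust variances (adjusted p = 0.0364). The podocyte arrays gave 311.7, 207.6 and 290.6 in the mutant, a range that overlapped wild type (difference -0.13, interval -0.53 to 0.28, adjusted p = 0.769). Endothelial mutant arrays had a mean of 75.3 ± 6.25 (SD, n = 3) and a highest value of 81.6. The mesangial genotype difference of *Ptger4* was not shown to differ from that of podocytes (0.31, adjusted p = 0.531) or endothelial cells (0.41, adjusted p = 0.290).

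*Ptger2*, the EP2 receptor, which also raises cyclic AMP, was below 100 on every array and was not part of the tests. Its signals were 73.1, 54.6 and 54.5 in wild type and 45.4, 43.8 and 41.0 in mutant mesangial cells, groups that did not overlap. With no minimum signal the difference was -0.47 ± 0.13 (log2, SE, unadjusted p = 0.00942, adjusted p = 0.173). Without a minimum, *Ptger2* was higher in wild type mesangial than endothelial cells by 0.53 (adjusted p = 0.0170) and than podocytes by 0.27 (adjusted p = 0.177). The wild type mesangial and endothelial means, 60.7 and 41.7, lie under the array medians, so the size of that difference is less certain. *Ptger3*, the EP3 receptor, which lowers cyclic AMP, was at 35.3 to 49.98 on all arrays, and all neighbours in the order of its group means overlapped.

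*Ptgfr*, the receptor of prostaglandin F2 alpha, was at 73.1, 73.8 and 75.5 in wild type podocytes and at 40.1 to 57.6 in all mesangial and endothelial arrays. The podocyte arrays of the wild type lay above these, below the minimum. Without a minimum the podocyte level was above that of wild type endothelial cells by 0.62 (adjusted p = 0.00513), and mesangial cells were below podocytes by a log2 value of -0.63 (adjusted p = 0.00699). Mutant podocytes spread from 56.3 and 64.7 to 122.7 on array C, the only array above 100, and their difference from wild type was 0.04 (interval -0.59 to 0.68, adjusted p = 0.954). *Ptger1*, the EP1 receptor, which raises cell calcium, is not alone on its transcript cluster, so its own signal cannot be told apart within it. The signal of the cluster was 100.8 to 188.8 on the 18 arrays. It was at 147.7, 146.4 and 140.0 in wild type and 187.9, 145.6 and 188.8 in mutant endothelial cells (0.26, adjusted p = 0.296), and at 128.6 to 135.1 in wild type and 110.9 to 123.8 in mutant mesangial cells (-0.17, adjusted p = 0.291).

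**Figure D2:**
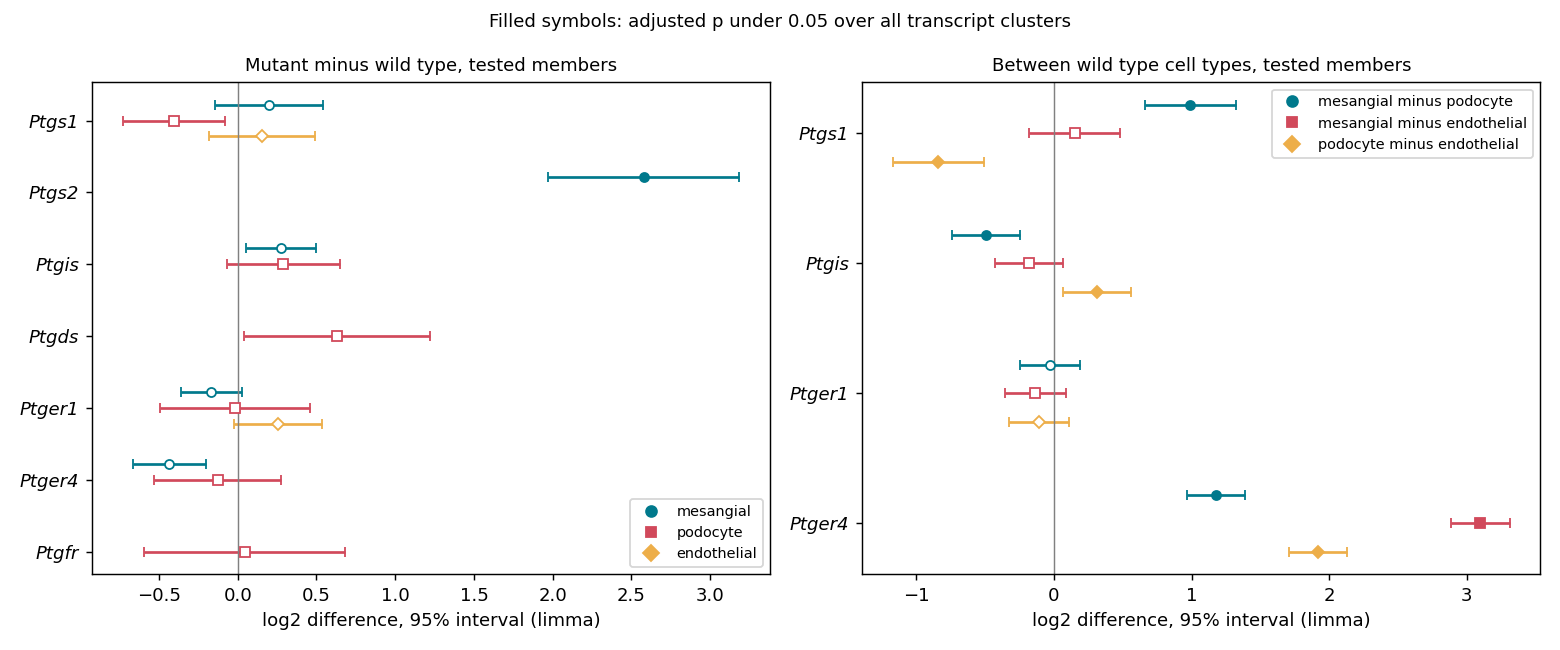
Log2 differences (x axis) with 95% intervals from limma for the members tested (y axis), mutant minus wild type in each cell type on the left and between wild type cell types on the right, with filled symbols for adjusted p under 0.05. On the left only *Ptgs2* in mesangial cells, at 2.58, is filled, and on the right *Ptger4* differs in all 3 comparisons.

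Counted over the members, 5 were tested between the mesangial genotypes and 1, *Ptgs2*, was called, where 2.92% of all transcript clusters tested were called. By a rule after the study's low stringency array screen, called the methods' rule below, it was again *Ptgs2* alone, against 5.19% of all clusters. This rule asks for a fold change over 1.5 beside a p under 0.05, read here as unadjusted. In podocytes 6 were tested by limma and 0 were called, against 0.0578% of all clusters, while 2 had an unadjusted p under 0.05 (*Ptgds* and *Ptgs1*), against 14.3% of all clusters, and *Ptgds* alone met the methods' rule, which 5.61% of all clusters met. In endothelial cells 2 were tested by limma, 0 were called and 0 had an unadjusted p under 0.05 or met the methods' rule, where 1.29% of all clusters were called, 18.5% had such a p and 3.82% met the rule. Most members were below the minimum on all endothelial arrays, so their genotype differences were not part of that test. With no minimum limma gave these members an adjusted p from 0.510 (*Ptger2*) to 0.874 (*Ptger4*), for differences between low signals.

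Between wild type cell types 4 members were tested. Of these, 3 were called between mesangial cells and podocytes, where 27.9% of all clusters were, 1 between mesangial and endothelial cells, where 32.0% were, and 3 between podocytes and endothelial cells, where 38.8% were. Differences between cell types were thus frequent over the whole array. For the difference of the genotype effects, 7 members were tested, and *Ptgs2* alone was called for podocytes against mesangial cells (0.717% of all clusters) and for endothelial against mesangial cells (1.07%). For endothelial cells against podocytes limma called 0, against 2.11% of all clusters, with 2 members at an unadjusted p under 0.05, where 23.4% of all clusters had one. These 3 contrasts, like the 3 between cell types, share arrays.

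The genes whose log2 signal followed a member most closely over the 18 arrays were found among 11132 clusters with 1 symbol and a signal of at least 100 on some array. Pearson's r is given as a description, since the arrays form 6 groups. For *Ptgs2* these were *Galnt3* (r = 0.958), which starts O-linked glycosylation, *Errfi1* (r = 0.938), an inhibitor of the EGF receptor that growth factors induce, and *Col14a1* (r = 0.934), a fibril-associated collagen. Their mean signals in wild type and mutant mesangial cells were 52.8 and 217.0 for *Galnt3*, 209.3 and 1043 for *Errfi1*, and 102.5 and 473.8 for *Col14a1*. In podocytes and endothelial cells *Galnt3* stayed at 51.1 to 55.5 and *Col14a1* at 63.5 to 88.3, whereas *Errfi1* was at 110.4 to 227.3.

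*Ptger4* was followed by *Rbms3* (r = 0.991), an RNA binding protein, *Hoxc10* (r = 0.990), a homeobox gene, and *Gpc3* (r = 0.987), a glypican, all of which stepped down from mesangial cells to podocytes to endothelial cells. *Gpc3*, for instance, had means of 1618, 490.8 and 46.1 in the wild type cell types, and was at 1657 in mutant mesangial cells, where *Ptger4* was lower than in wild type. *Rbms3* (674.4 in wild type and 599.9 in mutant mesangial cells) and *Hoxc10* (231.2 and 189.2) had the lower mean in the mutant, as *Ptger4* did. *Ptgs1* was followed by *Pik3c2a* (r = 0.963), a phosphoinositide kinase, *Rab31* (r = 0.954), a small GTPase of vesicle traffic, and *Pdcd5* (r = 0.953). *Rab31* had means of 165.2 and 100.4 in wild type and mutant podocytes against 256.3 to 373.2 in the other groups. *Ptgis* was followed by *Krtap4-7* (r = 0.943), *Crb2* (r = 0.934), a polarity gene known from the podocyte, and *Siglec5* (r = 0.927). *Crb2* had group means of 59.1 to 113.0 and *Siglec5* of 75.5 to 101.3, so both likenesses lie among low signals. *Krtap4-7* was at 267.8 to 473.4. For *Ptgds*, *Crct1* (r = 0.926), *Rbfox1* (r = 0.920) and *Iyd* (r = 0.914) had group means of at most 86.1, so this likeness lies among low signals. The cluster of *Ptger1* was followed less closely, by *Taf5* (r = 0.871), *Yipf3* (r = 0.855) and *U2af1* (r = 0.844). *Taf5* had low group means of 69.5 to 109.5, beside 158.6 to 232.1 for *Yipf3* and 214.7 to 277.3 for *U2af1*.

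**Figure D3:**
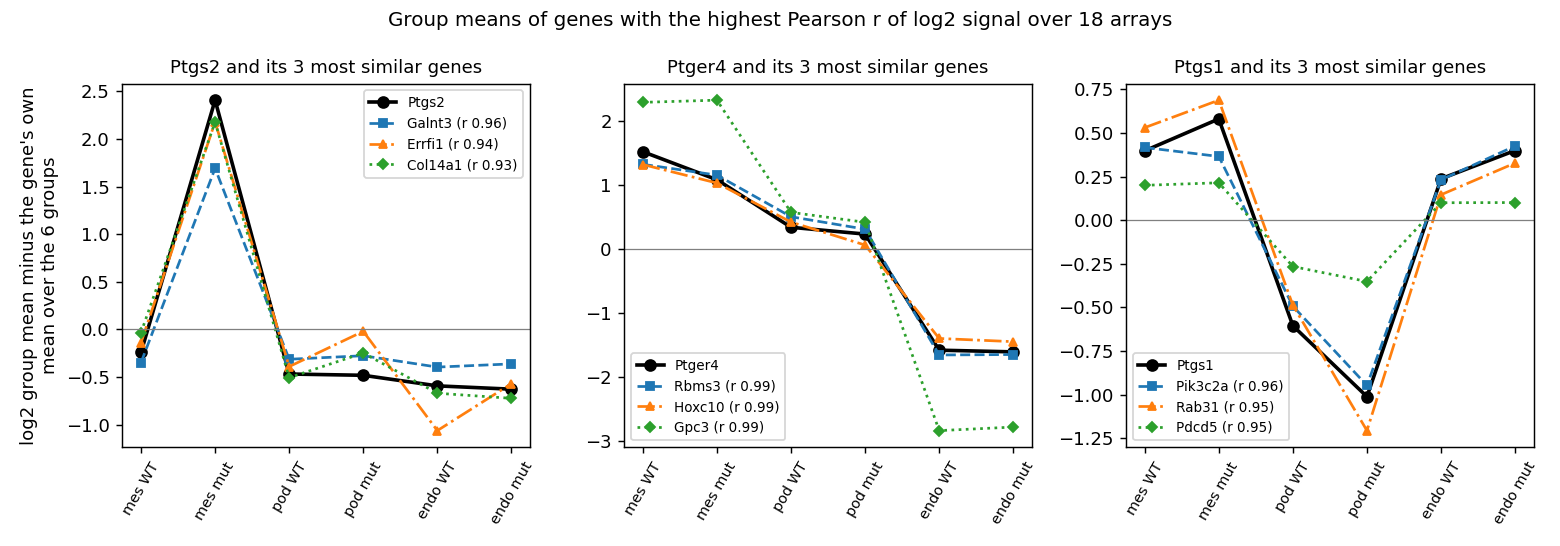
Log2 of the group mean minus the gene's own mean over the 6 groups (y axis) by cell type and genotype (x axis) for *Ptgs2*, *Ptger4* and *Ptgs1*, each with the 3 genes of the highest Pearson r over 18 arrays. *Ptgs2* and its like genes peak in mutant mesangial cells, and *Ptger4* and *Gpc3* differ in that *Gpc3* has means of 1618 and 1657 in wild type and mutant mesangial cells. *Rbms3* and *Hoxc10* are lower in mutant than in wild type mesangial cells, as *Ptger4* is.

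Around these 10 genes, 62 other genes listed with arachidonic acid metabolism were taken and 61 were found on the array: 19 genes of the phospholipase A2 family and related lipases and hydrolases, 10 other prostanoid synthases and related enzymes, 5 genes listed with the other prostanoid receptors (among them *Ptgfrn*, a regulator of a receptor and not a receptor), 7 genes of transport and breakdown, and 20 leukotriene, lipoxygenase and epoxygenase genes. Between the mesangial genotypes 19 were tested, 0 were called higher and 2 lower, where 2.92% of all clusters were called in either direction, and their median log2 difference was -0.10 beside -0.02 over all clusters. *Ephx1*, an epoxide hydrolase, fell from 449.7, 479.7 and 523.5 to 301.9, 273.3 and 286.4, a difference of -0.75 ± 0.09 (adjusted p = 0.0147). *Ptgr2*, a reductase that breaks down prostaglandins, fell from 313.6, 274.4 and 315.0 to 181.9, 181.2 and 208.3, a difference of -0.66 ± 0.10 (adjusted p = 0.0288). The genotypes did not overlap for either gene, and neither did the mesangial and parietal marker sums given above, whose part here was not tested. Neither call was stable when an array was left out, although the differences stayed alike: that of *Ptgr2* was lost without any 1 of the 6 (adjusted p from 0.0507 to 0.110), and that of *Ephx1* without mutant array A, B or C or wild type array B (adjusted p from 0.0507 to 0.0765), with differences of -0.73 to -0.63 and -0.80 to -0.69. Without mutant array B and wild type array C the adjusted p was 0.0857 for *Ephx1* and 0.157 for *Ptgr2*.

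*Alox5ap*, the protein that presents arachidonic acid to 5-lipoxygenase and is known from leukocytes, was at 88.9, 163.0 and 161.2 in wild type and 266.9, 445.0 and 557.2 in mutant mesangial cells. The groups did not overlap, and the difference of 1.61 ± 0.33 met the methods' rule but not the adjusted test (adjusted p = 0.0597), which it passed in 4 of 14 alternative fits (lowest adjusted p = 0.00449). Among the mutant arrays the leukocyte sum was highest on B and *Alox5ap* on C, and the part of leukocytes in this difference was not tested. *Pla2g4a*, the cytosolic phospholipase A2 that supplies both cyclooxygenases, was at 859.3, 813.8 and 559.0 in wild type and 805.3, 804.5 and 839.6 in mutant mesangial cells (0.16, interval -0.24 to 0.55, adjusted p = 0.622).

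In podocytes 20 of the listed genes were tested by limma and 0 were called, while 8 had an unadjusted p under 0.05 and 6 met the methods' rule. Over all clusters 0.0578% were called, 14.3% had an unadjusted p under 0.05 and 5.61% met the rule. Those higher in the mutant by that rule were *Ptgr1*, a leukotriene and prostaglandin reductase (97.0, 178.0 and 256.3 against 78.4, 93.9 and 62.4, difference 1.09, adjusted p = 0.230), and *Ptges3l* (0.81, adjusted p = 0.197), a relative of a prostaglandin E synthase whose cluster also holds *Rundc1* and *Aarsd1*, so these genes cannot be told apart. With wild type below 100, *Ptgr1* and the cluster of *Ptges3l* entered the test only through mutant arrays, where they were high. Those lower by the methods' rule were *Pla2g4a* (132.5, 76.2 and 43.4 against 180.3, 153.0 and 134.6, difference -1.03, adjusted p = 0.279), *Pla2g16* (-0.73), *Alox12* (-0.67) and *Ptgr2* (-0.66). Leaving out 1 array moved *Pla2g4a* from -1.43 to -0.62 and *Ptgr1* from 0.77 to 1.47, the lesser value without mutant array C in each case. Without mutant array A the adjusted p fell below the threshold for *Pla2g4a* (0.0451), *Ptgr1* (0.0346) and *Ptgr2* (0.0383). *Pla2g4a* and *Pla2g16* were called higher in wild type mesangial and endothelial cells, respectively, than in wild type podocytes, the latter call being lost without podocyte wild type array C or endothelial wild type array A or B (adjusted p of 0.0720, 0.0524 and 0.0549). The difference of *Alox12* between wild type podocytes and endothelial cells, -1.29 (adjusted p = 0.0339), was called in only 1 of 6 fits that leave out 1 array (adjusted p from 0.0496 to 0.104). *Ptgr2*, in contrast, was higher in wild type podocytes than in endothelial cells, by 0.42 (adjusted p = 0.00585), and *Pla2g4a* by 1.35 (adjusted p = 0.000314). The sums of 10 mesangial and 10 endothelial markers were 1321 to 3823 and 976 to 2956 in mutant podocytes against 4039 to 5064 and 4608 to 6060 in wild type ones, and those of parietal and of juxtaglomerular and smooth muscle markers were 687 to 888 and 1584 to 3643 against 475 to 488 and 1332 to 1365, with the part of these lists in the values not tested. In endothelial cells 17 were tested by limma, 0 were called and 0 met the methods' rule, while 4 had an unadjusted p under 0.05, beside 18.5% of all clusters with such a p, 1.29% called and 3.82% that met the rule.

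Between wild type cell types, 22 of the listed genes were tested. Mesangial cells exceeded podocytes for 5 and were below them for 3, exceeded endothelial cells for 7 and were below them for 4, and podocytes exceeded endothelial cells for 4 and were below them for 5. Over all clusters 27.9%, 32.0% and 38.8% were called in these comparisons, beside 8, 11 and 9 of the 22 listed genes, and nothing particular to the list is read from these counts. *Pla2g4a* had the largest log2 difference in both mesangial comparisons, at 2.24 ± 0.18 (log2, SE, adjusted p = 2.6e-05) for mesangial cells over podocytes and 3.59 ± 0.18 (adjusted p = 5.43e-07) for mesangial over endothelial cells. Its endothelial wild type signals were at most 70.7, below the minimum, so the second difference is against a low signal and its size is less certain. The order of its wild type cell types is that of *Ptger4*. *Slco3a1*, an organic anion transporter, was higher in mesangial cells than in podocytes by 1.23 (adjusted p = 0.000449). *Ephx1* was higher in mesangial cells (1.58, adjusted p = 4.22e-05) and podocytes (1.86, adjusted p = 1.46e-05) than in endothelial cells. Endothelial cells were above mesangial cells for *Pla2g16*, where the log2 difference of mesangial minus endothelial cells was -2.69 (adjusted p = 0.0012), *Alox12* (-2.07, adjusted p = 0.00429), *Mgll*, a monoglyceride lipase (3.99-fold, adjusted p = 0.000736), and *Abcc4*, an exporter of prostaglandins (-1.40, adjusted p = 0.000325). In mesangial wild type array C, which held markers of other cells, *Pla2g16* was at 143.6 against 34.6 and 42.9 on arrays A and B, and *Alox12* at 153.0 against 41.5 and 47.7. Without that array the differences were -3.33 for *Pla2g16* and -2.67 for *Alox12*, and over the fits that leave out 1 array they reached -2.30 and -1.73 at the other end. The mesangial signals of arrays A and B lie below the array medians, so the sizes of these differences are less certain.

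The receptor of prostacyclin, *Ptgir*, was at 87.1, 101.1 and 86.2 in wild type mesangial cells, above podocytes (0.57, adjusted p = 0.00415) and endothelial cells (0.48, adjusted p = 0.00809). It was tested only through mesangial array B, the only one above 100. The thromboxane receptor *Tbxa2r* was at 91.9 to 116.4 on all arrays. *Ptges3*, the cytosolic prostaglandin E synthase and a cochaperone present in most cells, was at 761.9 to 1328 on all arrays. *Ptges2*, *Hpgds* and *Tbxas1*, the other synthases of prostaglandin E2, prostaglandin D2 and thromboxane, did not reach 100 on any array.

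*Slco2a1*, the transporter that takes prostaglandins into cells for breakdown, was the only listed gene with a called difference of the genotype effects. It was at 1194, 974.7 and 1050 in wild type and 1646, 1548 and 1455 in mutant endothelial cells, and at 1303, 1246 and 1257 in wild type and 739.1, 778.9 and 1190 in mutant podocytes. Mutant arrays lay above wild type in endothelial cells and below in podocytes, where the endothelial and mesangial marker sums were lower too, as given above. The endothelial marker sum was higher on mutant than on wild type endothelial arrays, at 17187 to 18169 against 15644 to 16994. The part of these lists in the *Slco2a1* values was not tested. The genotype effect in endothelial cells minus that in podocytes was 1.06 ± 0.21 (log2, SE, adjusted p = 0.0237). This is read beside a median of 0.11 over all 13523 clusters of that contrast, which became 0.21 with array medians subtracted and 0.0030 after another quantile normalization, where *Slco2a1* was at 0.93 (adjusted p = 0.0736). The call was also lost without podocyte wild type array A, endothelial mutant array A or endothelial wild type array B or C (adjusted p from 0.06 to 0.0650). Within a cell type the differences were 0.53 (adjusted p = 0.0583) in endothelial cells, -0.52 (adjusted p = 0.293) in podocytes and -0.36 (adjusted p = 0.136) in mesangial cells. None of them was called. The lower mutant signal was thus not seen in podocytes alone, and the effect in endothelial minus that in mesangial cells was 0.89 (adjusted p = 0.0510).

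**Figure D4:**
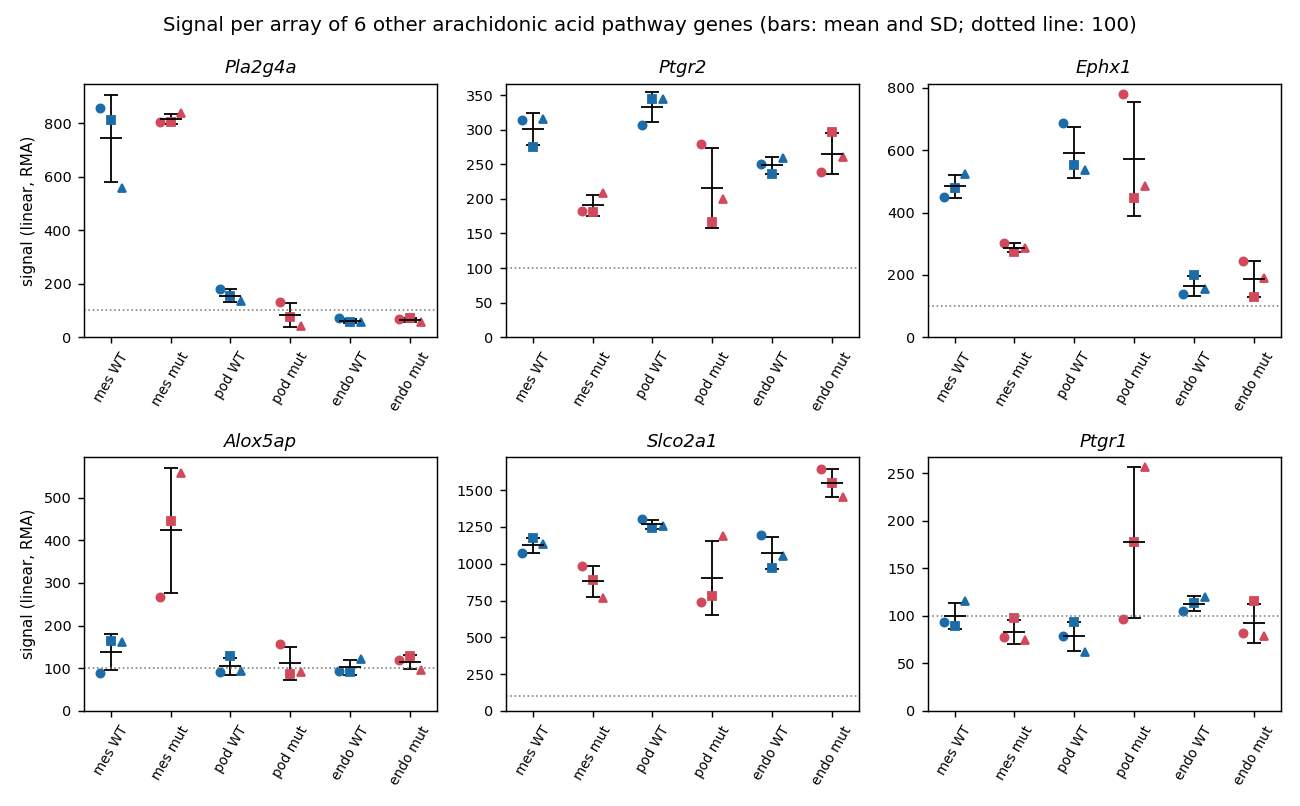
Signal (linear scale, y axis) on each array of 6 other genes of the pathway by cell type and genotype (x axis), with the mean and SD of 3 arrays and a dotted line at 100. *Ephx1* and *Ptgr2* are lower on all 3 mutant than on all 3 wild type mesangial arrays, and *Alox5ap*, which was not called, is higher on them. *Slco2a1* differs in opposite directions in podocytes and endothelial cells, where neither difference was called within its cell type.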

How the data were processed

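Signals came from 18 Affymetrix MoGene 1.0 ST arrays (annotation release na32, mm9), 3 for each of 6 groups; RNA was amplified by Ribo-SPIA. The authors deposited intensity values on a linear scale, RMA values from Expression Console per the labels, while the methods name GeneSpring and the series text names Exon ST arrays. Some gene names are not reported here. A second block of 18 columns, named as normalized, was not used here. Column names give the group of an array and not its sample. The number of arrays limits the precision.

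Here log2 signals were compared in R 4.3.3 by the linear models and moderated variances of limma 3.58.1 (lmFit, eBayes), without covariates and with no pairing in the labels, on clusters with a signal of at least 100 on at least 1 array of the fit: 6 arrays for a genotype comparison, 9 wild type arrays between cell types, and 18 for differences of genotype effects. A call is a Benjamini-Hochberg adjusted p under 0.05 over all clusters tested. The methods' rule, after the study's low stringency array screen, is given beside it (p under 0.05, read here as unadjusted, and fold change over 1.5). The fit was tested on simulated data. Members, gene lists and tests were chosen with earlier results of these data known. Named genes are all members, listed pathway genes called in a comparison (the largest differences), and the 3 genes most like each member whose mean reached 100 in a group. Pathway genes that met only the methods' rule, or are given as levels, were chosen after their values were seen. *Ptgdr2* was found as *Gpr44* and *Ptges3l* as 1700113I22Rik, and *Fam213b* was not matched. Alternatives were other minimums, an intensity trend, other scalings, a floor of 50, all 18 arrays in 1 fit, and leaving out arrays.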

Additional observations from a re-analysis of the deposited data

Results flagged for a closer look

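The genotype difference of *Ptgs2* was not the same in the 3 cell types by a test of the difference itself: the effect in podocytes minus that in mesangial cells was -2.59, and the effect in endothelial minus that in mesangial cells was -2.62 (log2, limma over 18 arrays, adjusted p = 0.000134 and 9.69e-05). *Ptgs2* passed the minimum of 100 only on the mutant mesangial arrays, so the effects in podocytes and endothelial cells are differences between low signals (42.3 to 58.0). Both contrasts use the same mesangial arrays, and the higher signal was present on 3 of 3 mutant mesangial arrays. The control genotype in these contrasts may also differ between cell types, since the mesangial control columns carry other marks. The effect of the mutation on *Slco2a1* in endothelial cells minus that in podocytes was 1.06 (adjusted p = 0.0237), with 3 of 3 endothelial mutant arrays above and 3 of 3 podocyte mutant arrays below the wild type of their cell type. Endothelial and mesangial marker sums were also lower on the mutant podocyte arrays, at 976 to 2956 against 4608 to 6060 and 1321 to 3823 against 4039 to 5064, and their part was not tested. This call held in 13 of 18 alternative fits (highest adjusted p = 0.0736). Of 25 listed genes tested in this contrast *Slco2a1* alone was called, where 2.11% of all clusters were.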

How the results depend on the processing

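The *Ptgs2* calls held under all alternatives: 14 fits for the mesangial genotypes (adjusted p from 7.8e-07 to 0.0392) and 18 for each contrast with mesangial cells. Of 698 values of members under alternatives, 655 kept their direction and side of the threshold. The count of members called moved from 1 to 2 for the mesangial genotypes with 100 required on all 3 arrays of a group or with an intensity trend, from 0 to 1 for podocytes by the methods' rule, from 1 to 3 for wild type mesangial against endothelial cells with no minimum, from 1 to 3 for the podocyte minus mesangial effect by the methods' rule, and from 0 to 1 for the endothelial minus podocyte effect by that rule. By that rule it fell from 3 to 2 for wild type podocytes against either other cell type, as *Ptgis* dropped out. Between podocytes and endothelial cells *Ptgis* was also lost with no minimum, an intensity trend, array medians subtracted or all 18 arrays together (adjusted p from 0.055 to 0.063). With no minimum *Ptgfr* was added to both of these comparisons (adjusted p = 0.00699 against mesangial and 0.00513 against endothelial cells). Over all clusters, 734 of 13523 met the methods' rule for the podocyte minus mesangial effect. For the endothelial minus podocyte effect 1430 of 13523 met it. Between wild type podocytes and mesangial or endothelial cells 1999 and 2764 of 12537 met it. With no minimum 4697 of 28856 were called between wild type mesangial and endothelial cells. For the mesangial genotypes 578 of 9457 were called with 100 on all 3 arrays of a group, and 729 of 11457 with the trend. Counts over all clusters moved with single arrays: leaving out 1 array gave 50 to 304 calls for 335 in mesangial cells, 0 to 344 for 7 in podocytes and 49 to 253 for 146 in endothelial cells, and the other alternatives 130 to 729, 0 to 837 and 83 to 271; for the effect contrasts leaving out 1 array gave 44 to 423 for 97, 85 to 177 for 145 and 30 to 1865 for 285. The other alternatives gave 76 to 143, 110 to 262 and 77 to 970 for these effect contrasts. Subtracting array medians gave the 262 and the 970, and another quantile normalization gave the 77. The counts of 344 and 1865 came without podocyte mutant array A.

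Signs that changed were of values near 0, none of them called. With array medians subtracted these were *Ptger1* between wild type mesangial cells and podocytes (0.047), *Ptgis* in the podocyte minus mesangial effect (-0.0033), *Ptgs1* in the endothelial minus mesangial effect (0.044) and *Ptgs2* in the endothelial minus podocyte effect (0.077). After another quantile normalization they were *Ptger1* in podocytes (0.020), *Ptgfr* in the endothelial minus mesangial effect (0.0096) and *Ptgs2* in the endothelial minus podocyte effect (0.096), and with signals under 50 set to 50 the last 2 were 0.074 and 0.019. Leaving out 1 array gave ranges across 0 for *Ptger1* (-0.19 to 0.18) and *Ptger4* (-0.24 to 0.052) in podocytes, *Ptger1* (-0.084 to 0.071) between wild type mesangial cells and podocytes, and *Ptgs1* (-0.0023 to 0.24) between wild type mesangial and endothelial cells. For the podocyte minus mesangial effect they were *Ptger1* (-0.021 to 0.35), *Ptgfr* (-0.10 to 0.25) and *Ptgis* (-0.10 to 0.14), for the endothelial minus mesangial effect *Ptgfr* (-0.22 to 0.026) and *Ptgs1* (-0.20 to 0.10), and for the endothelial minus podocyte effect *Ptger4* (-0.081 to 0.21) and *Ptgs2* (-0.13 to 0.054). The cause of these changes was not tested. The mean over several clusters of a gene was not run, as each member has 1 cluster. No paired analysis was possible because each array carries a number of its own, and no number is shared between groups.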
